A study of Rattus norvegicus with 2 samples.

Results

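The 9 genes described here, out of 30017 gene symbols in the deposited counts, belong to the interferon response and to antigen processing: Isg15, Ifit3, Ifih1, Irf1, Irf7, Psmb8, Psmb9, Tap1 and Igtp. They were taken by symbol, and all 9 were present. The cells came from dorsal root ganglia (DRGs), where the cell bodies of sensory neurons lie, and each condition gave 1 single-cell library. The DPN library came from 5 male Sprague-Dawley rats with diabetic peripheral neuropathy, taken 8 weeks after streptozotocin was injected at 65 mg/kg, a toxin of the insulin-producing beta cells. The Control library came from 5 rats of the same strain, sex and age given citrate buffer alone. All rats were 8 weeks old when bought, and the L3 to L6 ganglia of each group were pooled, digested with enzymes at body temperature and cleared of dead cells before capture. Streptozotocin diabetes is a chemical model, and with 1 pool per condition a difference between the pools cannot be told apart from a difference between rats or preparations.

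Interferons are secreted proteins that bind receptors on nearby cells and, through the kinases of the JAK family and the transcription factors of the STAT and IRF families, switch on a shared set of genes. Type I interferons act mainly through a DNA element called the interferon-stimulated response element (ISRE), and interferon gamma through the gamma-activated site (GAS). Among the targets are antiviral proteins and the immunoproteasome, a form of the proteasome with exchanged catalytic subunits whose peptides are carried by the TAP transporter to MHC class I molecules.

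Because these genes are known as interferon targets, their promoters were searched for both elements. RefSeq promoter windows of build GRCr8, from 250 bases before to 50 bases after the start used for a gene, were found for 8 of the 9 genes, all but Isg15. For Irf7, Psmb8 and Psmb9 the start used lay inside the RefSeq span of the gene. The window of Irf7 (chr1:205799974-205800273) fell wholly within that gene (chr1:205796956-205800543). The ISRE was searched as GAAA, any 2 bases and GAAA again, and the GAS as TTC, any 3 bases and GAA, both on either strand. The ISRE letters were in 6 of the 8 windows, against 3.92% of 33469 windows of all genes, and the GAS letters in 3 of the 8, against 8.87%. The windows below are those of a gene that was lower in DPN satellite glia (Ifit3) and of the genes that were higher there (Ifih1, with ISRE letters, and Irf1, with GAS letters). Those of Tap1 and Psmb9, which start back to back on chromosome 20 and run apart, follow. Each is written 5′ to 3′ on the strand of the gene, with the element in capitals.
Ifit3 (chr1:241527076-241527375, plus strand): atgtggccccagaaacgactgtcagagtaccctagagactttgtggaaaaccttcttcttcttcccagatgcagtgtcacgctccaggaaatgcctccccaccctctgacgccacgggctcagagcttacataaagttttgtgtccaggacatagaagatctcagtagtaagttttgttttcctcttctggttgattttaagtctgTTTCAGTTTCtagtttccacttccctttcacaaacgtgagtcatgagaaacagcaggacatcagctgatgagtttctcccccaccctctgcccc
Ifih1 (chr3:67683919-67684218, minus strand): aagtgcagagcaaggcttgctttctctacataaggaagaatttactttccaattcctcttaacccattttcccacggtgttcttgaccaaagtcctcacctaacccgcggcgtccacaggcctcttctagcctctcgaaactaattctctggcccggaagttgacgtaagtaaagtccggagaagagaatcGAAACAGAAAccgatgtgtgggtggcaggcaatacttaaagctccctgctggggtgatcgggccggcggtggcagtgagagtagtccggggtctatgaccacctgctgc
Irf1 (chr10:38417685-38417984, plus strand): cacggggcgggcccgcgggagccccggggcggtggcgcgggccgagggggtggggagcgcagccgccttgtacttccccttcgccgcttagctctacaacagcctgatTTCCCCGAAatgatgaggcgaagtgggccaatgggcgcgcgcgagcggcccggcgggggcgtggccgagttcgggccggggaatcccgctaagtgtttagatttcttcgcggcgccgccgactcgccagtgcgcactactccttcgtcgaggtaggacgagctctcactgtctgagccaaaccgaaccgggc
Tap1 (chr20:4668494-4668793, minus strand): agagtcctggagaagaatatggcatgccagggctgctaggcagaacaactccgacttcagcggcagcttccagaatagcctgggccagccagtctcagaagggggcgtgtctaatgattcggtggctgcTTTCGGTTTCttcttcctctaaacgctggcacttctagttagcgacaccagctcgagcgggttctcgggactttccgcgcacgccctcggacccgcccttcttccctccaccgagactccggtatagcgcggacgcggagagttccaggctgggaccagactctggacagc
Psmb9 (chr20:4668750-4669049, plus strand): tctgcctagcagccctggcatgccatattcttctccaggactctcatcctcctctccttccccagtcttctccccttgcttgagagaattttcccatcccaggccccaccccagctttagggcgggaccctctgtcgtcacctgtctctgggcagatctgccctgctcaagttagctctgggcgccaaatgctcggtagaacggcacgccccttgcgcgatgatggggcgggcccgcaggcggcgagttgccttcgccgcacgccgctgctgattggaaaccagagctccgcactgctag

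Counted from the start used for each window, the ISRE letters began at −44 in Ifit3, −59 in Ifih1, −69 in Irf7, −4 in Psmb8, −121 in Tap1 and −103 in Igtp. The GAS letters began at −142 in Irf1, −245 in Psmb8 and −114 in Igtp, so that Igtp held both within a few bases, without overlap. The window of Psmb9 held neither. It shares 44 bases with the window of Tap1, which runs the other way, and the ISRE letters of Tap1, at chr20:4668655-4668664, lie between the starts of both genes, 85 bases outside the window of Psmb9. Of the constitutive catalytic subunit genes Psmb5, Psmb6 and Psmb7 none had either element in its window, and Psmb10, a further immunoproteasome subunit, had the ISRE letters at −73 and −17. A match describes letters only and shows no binding.

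Levels were measured in 5 gates of cells, each defined by marker genes counted per 10000 unique molecular identifiers (UMIs, tags that count molecules) in cells with at least 1000 UMIs and under 20% mitochondrial UMIs. Satellite glia, which wrap the neurons, had at least 12 for Fabp7 plus Tyrp1 and numbered 3012 cells in the DPN and 4135 in the Control library. Other glia, with S100b at 5 or more and below that gate, numbered 4217 and 3101. There were 1213 DPN and 802 Control cells in the endothelium (Cldn5, Flt1 and Cdh5 at 10 or more), 328 and 211 fibroblasts (Lum at 5 or more), and 242 and 173 macrophages (C1qa, C1qb and C1qc at 10 or more). The whole libraries held 13168 and 11011 barcodes, of which 38 were shared, and 11013 and 9798 cells passed the filters. Of markers that the gates did not use, several followed the names, as with the endothelial gene Kdr (686 CPM in DPN and 489 CPM in Control endothelium), the matrix gene Dcn (23194 and 31202 CPM in fibroblasts) and the receptor gene Csf1r (429 and 421 CPM in macrophages). The glial transporter gene Slc1a3 stood at 101 CPM in DPN and 65.9 CPM in Control satellite glia, 60.6 and 39.2 CPM in other glia, 71.5 and 62.1 CPM in fibroblasts, and 5.41 and 3.85 CPM in the endothelium, so that it did not set satellite glia apart from fibroblasts in the Control library. The glial cadherin gene Cdh19 stood at 454.5 CPM in DPN and 307 CPM in Control other glia and at 176 and 128 CPM in satellite glia, so that the glial gates differ by degree. Cells in more than 1 gate made up 0.822% to 3.89% of the glial gates and 8.06% to 14.1% of the others.

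UMIs of a gene were summed over the cells of a gate and given per 1000000 UMIs of those cells (CPM), with 95% Poisson intervals. Ratios are DPN over Control, followed in brackets by the exact 95% interval of the counts. All intervals cover counting error only, and no test between conditions is possible with 1 library each. A gene with at least 50 UMIs over both libraries is called higher if its ratio was at least 1.5 and its interval above 1, and lower if its ratio was at most 0.667 and its interval below 1. Over all genes the median log2 ratio was 0.21 in satellite glia, 0.19 in other glia, 0.08 in the endothelium, 0.20 in fibroblasts and 0.13 in macrophages, and the ratios below should be read against these shifts.

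In satellite glia, 5 of the 9 genes were lower in DPN, 2 were higher, 1 lay between the limits and 1 had too few UMIs. Isg15, Ifit3, Irf7, Psmb9 and Tap1 were lower, and Ifih1 and Irf1 were higher. Of 11865 genes tested in satellite glia 2.43% were called lower and 27.2% higher, which are the shares to set beside 5 lower and 2 higher of 8 tested genes. The median log2 ratio of the 8 tested genes was −0.66, against 0.21 over all genes.

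Isg15 encodes a small protein that is attached to other proteins like ubiquitin and is among the most abundant products of the interferon response. It stood at 146 CPM (142 to 150) in DPN satellite glia, against 276 CPM (272 to 280.4) in Control satellite glia, a ratio of 0.528 (0.511 to 0.545). In the endothelium it reached 128 CPM in DPN and 219 CPM in Control (0.582, 0.547 to 0.620) and was called lower there too, a call that ended with cells thinned to 1000 UMIs (0.712). It was also lower in DPN fibroblasts, with 71 UMIs, against 69 UMIs from a smaller Control sum (0.647, 0.458 to 0.915), which ended with cells of at least 2000 UMIs (0.675) and with thinning, which left too few UMIs. In other glia the levels were 74.7 and 102 CPM (0.734, 0.691 to 0.779), below 1 but short of the limit. Isg15 thus had a ratio below 1 in all 5 gates. Its level in satellite glia was above that in the endothelium, and that in the endothelium above that in other glia, in both libraries and by more than counting error.

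The macrophage value of Isg15 rests on 2 barcodes. There were 40 Isg15 UMIs in DPN and 136 in Control macrophages, a ratio of 0.257 (0.176 to 0.368), but 73 and 28 of the Control UMIs came from 2 cells, 1 of which also passed the gate of other glia and 1 that of satellite glia. Without these 2 cells the ratio was 0.962 (0.596 to 1.56), and among cells of exactly 1 gate it was 1.36 (0.578 to 3.34). Both of these intervals include 1.

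Ifit3 encodes a protein that takes part in the recognition of viral RNA. In satellite glia it stood at 63.2 CPM (60.6 to 66.0) in DPN and 114 CPM (111 to 117) in Control, a ratio of 0.554 (0.527 to 0.582). In the endothelium, where its level was highest in both libraries, it was at 188 CPM in DPN and 209 CPM in Control (0.896, 0.845 to 0.949), and in other glia at 35.1 and 48.4 CPM (0.724, 0.664 to 0.790). The ratio in fibroblasts was 0.720 (0.480 to 1.08) and in macrophages 1.54 (0.878 to 2.77), from at most 55 UMIs per library. Without the 2 macrophage barcodes named above, the macrophage ratio of Ifit3 was 1.95 (1.06 to 3.75), past the limit for a higher call.

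Irf7 is the transcription factor that amplifies type I interferon production, and it was sparse. Satellite glia had 14.6 CPM (491 UMIs) in DPN and 23.1 CPM (1340 UMIs) in Control, a ratio of 0.631 (0.568 to 0.701). Other glia had 8.69 and 13.9 CPM (0.625, 0.527 to 0.742), also called lower, and the endothelium 13.8 and 19.4 CPM (0.711, 0.580 to 0.871), which was not. Fibroblasts and macrophages had 5 to 13 UMIs per library, too few for a ratio. The call in satellite glia was lost with a mitochondrial limit of 10% (0.945, 0.541 to 1.59, from 127 DPN and 216 Control cells), with mitochondrial-record genes counted as mitochondrial (0.709) and with doubled gate thresholds (0.678). The call in other glia ended with the first of these (0.666, 0.436 to 1.01) and the second (0.743).

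Ifih1 and Irf1 ran the other way. Ifih1 encodes MDA5, a cytosolic sensor of long double-stranded RNA that sets off interferon production. It stood at 273 CPM (268 to 279) in DPN satellite glia, against 159 CPM (156 to 163) in Control satellite glia, a ratio of 1.72 (1.67 to 1.77). Its ratio was 2.12 (1.997 to 2.25) in other glia, with 138 CPM in DPN and 65.03 CPM in Control, and 1.73 (1.55 to 1.94) in the endothelium, with 75.5 and 43.7 CPM. Fibroblasts had 119 DPN and 27 Control UMIs of Ifih1 (2.77, 1.81 to 4.38), and macrophages 39 and 24 UMIs (1.42, 0.833 to 2.47). It was called higher in 4 of the 5 gates. In neurons, a comparison gate whose share of called genes was not counted, it was higher too (8.68 and 5.21 CPM, 1.67, 1.27 to 2.21). Its levels descended from satellite glia over other glia to endothelium in both libraries. With cells thinned to 1000 UMIs the fibroblast ratio of Ifih1 was 0.919 (0.316 to 2.84), from few UMIs.

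Long genes were higher in DPN as a class, and Ifih1 is the long gene of the group. Its genomic length in RefSeq is 48045 bases, which puts it in the longest of 3 equal groups of tested genes in every gate. The other 8 genes span 1288 to 10373 bases and fall in the shortest group. In satellite glia 44.2% of the longest genes were called higher, against 12.9% of the shortest, and 0.753% and 3.77% were called lower. The shortest group had a median log2 ratio of −0.05 in satellite glia and −0.09 in other glia. It was −0.16 in the endothelium, −0.08 in fibroblasts and −0.13 in macrophages. The part of gene length in the ratios of the members was not tested.

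Irf1 encodes a transcription factor that interferon gamma induces early and that drives antigen presentation genes. It stood at 863 CPM (853 to 873) in DPN satellite glia, against 471 CPM (465 to 476) in Control satellite glia, a ratio of 1.83 (1.80 to 1.86). The highest Irf1 level was that of satellite glia in the DPN library and that of the endothelium (723 CPM) in the Control library. In other glia Irf1 was at 754 CPM in DPN and 577 CPM in Control (1.31, 1.28 to 1.33), and in the endothelium at 797 and 723 CPM (1.10, 1.07 to 1.13), short of the limit in both. It was called higher in fibroblasts, with 433 and 275 CPM (1.57, 1.40 to 1.77), and in macrophages, with 203 and 134 CPM (1.52, 1.23 to 1.89). In satellite glia with under 10% mitochondrial UMIs, 127 DPN and 216 Control cells, the ratio was 1.36 (1.23 to 1.49), and 6 alternatives left the fibroblast ratio under the limit, down to 1.37 with cells weighted equally. The macrophage call ended under 4 alternatives (1.24 to 1.42).

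Immediate early genes, a class induced rapidly by stimuli that include tissue dissociation, were counted beside Irf1. In satellite glia 5 of 10 were higher and none lower, against 27.2% higher over all genes, their median log2 ratio was 0.63, and their summed level was 17735 CPM in DPN and 10719 CPM in Control. In other glia 4 of 10 were higher (median 0.39), in the endothelium 2 (0.33), in fibroblasts 5 (0.60) and in macrophages 5 (0.53), and none was lower in any of these gates. Over all genes 24.8%, 19.6%, 25.7% and 20.2% were called higher in these gates, so that the count in the endothelium equals the background. Fos, for example, stood at 4539 CPM in DPN and 2247 CPM in Control satellite glia (2.02). The part of this list in the ratio of Irf1 was not tested.

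**Figure D1:**
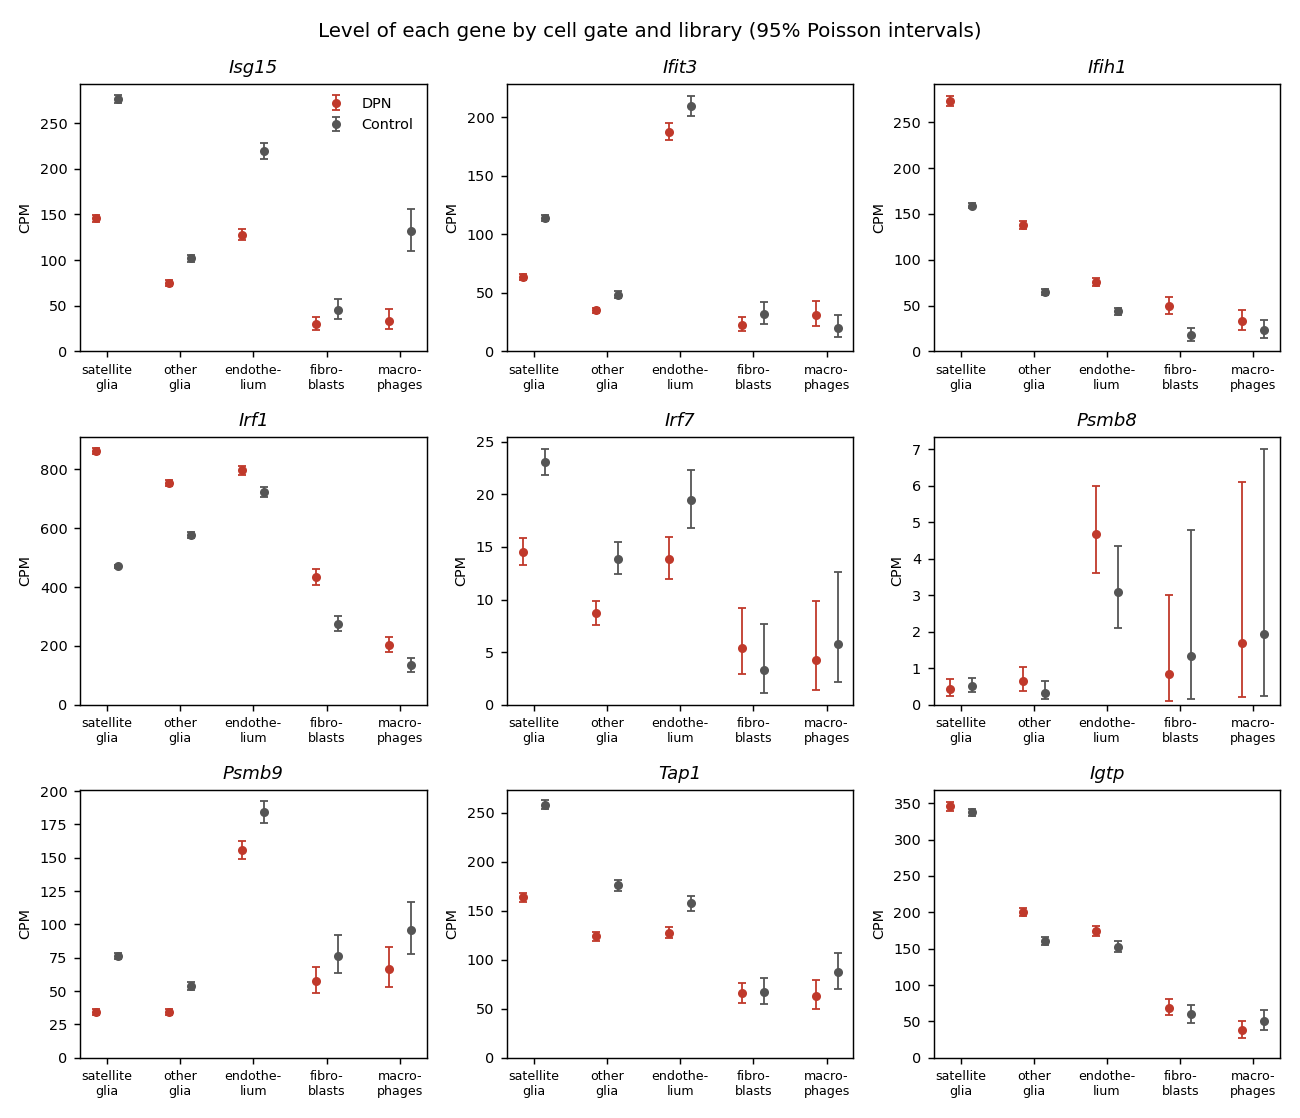
Level of each of the 9 genes (CPM, a scale of its own from 0 in each panel) in the 5 cell gates, in the DPN library (red, left) and the Control library (grey, right), with 95% Poisson intervals of the counts. In satellite glia Isg15 stands at 146 CPM in DPN and 276 CPM in Control, while Ifih1 (273 and 159 CPM) and Irf1 (863 and 471 CPM) stand higher in DPN.

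Psmb9 encodes an immunoproteasome subunit that replaces the constitutive Psmb6, and it had the lowest ratio of the group in satellite glia. There it stood at 34.2 CPM (32.3 to 36.3) in DPN and 76.2 CPM (74.0 to 78.5) in Control, a ratio of 0.449 (0.421 to 0.479). It was lower in other glia too, with 34.2 and 53.9 CPM (0.636, 0.583 to 0.692), a call that ended under 3 alternatives (0.740 to 0.795). In the endothelium, where it was most abundant in both libraries, its levels were 156 and 184 CPM (0.845, 0.794 to 0.899), within the limits. Fibroblasts had 139 and 116 UMIs of Psmb9 (0.753, 0.585 to 0.973), and macrophages 79 and 99 UMIs (0.697, 0.512 to 0.947).

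Set against its constitutive counterpart, Psmb9 made up 24.9% (23.7% to 26.2%) of the UMIs of Psmb9 and Psmb6 in DPN satellite glia and 37.9% (37.0% to 38.8%) in Control satellite glia. In other glia the share was 24.2% in DPN and 28.4% in Control, with intervals that do not meet. In the endothelium it was 59.9% (58.2% to 61.5%) and 58.5% (56.8% to 60.2%), within counting error of each other. The Psmb10 share of Psmb10 and Psmb7, the pair of another catalytic position, was 26.3% (24.9% to 27.7%) in DPN and 22.9% (22.0% to 23.9%) in Control satellite glia, the opposite direction. Psmb10 itself stood at 30.1 and 32.3 CPM there (0.932), and Psmb6 at 103 and 125 CPM (0.826). None of the 14 genes of the constitutive proteasome core had a ratio above 1 in satellite glia, other glia or endothelium, with median log2 ratios of −0.29, −0.29 and −0.20.

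Psmb8, the counterpart of Psmb5, was barely counted. It had 14 UMIs in 3012 DPN satellite glia and 29 UMIs in 4135 Control satellite glia, and 17 and 8 UMIs in other glia. Only the endothelium passed the minimum, with 64 UMIs (4.68 CPM) in DPN and 32 UMIs (3.08 CPM) in Control, a ratio of 1.52 whose interval (0.980 to 2.40) includes 1. The annotation behind the counts is not named in the sources, so that a low count of Psmb8 may not stand for a low level, and its share beside Psmb5 is not given. The cause of this low count was not tested.

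Tap1 encodes a chain of the transporter that moves peptides into the endoplasmic reticulum. It stood at 164 CPM (159 to 168) in DPN satellite glia, against 258 CPM (254 to 262) in Control satellite glia, a ratio of 0.633 (0.614 to 0.653). The ratio was 0.704 (0.673 to 0.737) in other glia, with 124 and 176 CPM, and 0.811 (0.757 to 0.868) in the endothelium, with 128 and 158 CPM. In fibroblasts it was 0.984 (0.761 to 1.27) and in macrophages 0.728 (0.529 to 1). The satellite glia call of Tap1 ended with a mitochondrial limit of 10% (0.750), with mitochondrial-record genes counted as mitochondrial (0.681) and with thinning (0.679). Tap2, the partner chain, was among the 3 lowest pathway genes in satellite glia (2.79 CPM in DPN and 5.57 CPM in Control, ratio 0.500), other glia (0.467) and endothelium (0.485).

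Igtp, a guanosine triphosphatase of the immunity-related family in rodents that interferon gamma induces, was the member that differed least in satellite glia. It stood at 346 CPM (339 to 352) in DPN and 337 CPM (333 to 342) in Control, a ratio of 1.02 (1.001 to 1.048), which median-ratio scaling moved to 0.923. The ratio was 1.25 (1.20 to 1.30) in other glia, 1.14 (1.07 to 1.22) in the endothelium, 1.16 (0.892 to 1.52) in fibroblasts and 0.756 (0.496 to 1.15) in macrophages, all within the limits. Its levels were highest in satellite glia in both libraries. In neurons Igtp was called higher, with 4.29 CPM (90 UMIs) in DPN and 1.99 CPM (29 UMIs) in Control (2.16, 1.41 to 3.40). The share of all genes called in the neuron gate was not counted. Markers of other glia summed to 104.7 CPM in DPN and 38.7 CPM in Control neurons, with 3 of 4 higher. Neutrophil markers summed to 7.87 and 0.55 CPM there, and satellite glia markers to 2.34 and 2.47 CPM. The part of such transcripts in the neuron calls of Igtp and Ifih1 was not tested.

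**Figure D2:**
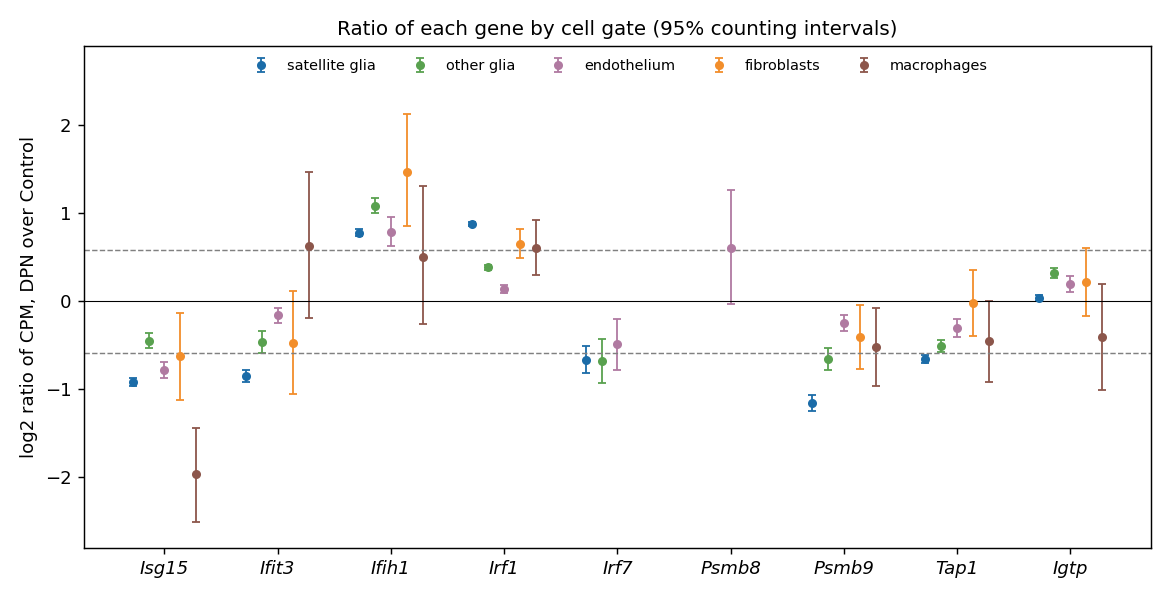
Log2 ratio of CPM, DPN over Control, of each gene in each gate (colours) with exact 95% intervals of the counts, for genes with at least 50 UMIs over both libraries. Dashed lines mark ratios of 1.5 and 0.667. Ifih1 lies above 1 in all 5 gates and Isg15 below 1 in all 5, and the lowest point, Isg15 in macrophages (ratio 0.257), rests on 2 Control cells.

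Outside satellite glia fewer genes passed a limit. In other glia 1 of 8 tested genes was higher and 2 were lower (background 24.8% and 2.48%), with a median log2 ratio of −0.46. In the endothelium 1 of 9 was higher and 1 lower (19.6% and 4.97%), with a median of −0.16. Fibroblasts had 2 higher and 1 lower of 7 (25.7% and 3.93%) and a median of −0.02, and macrophages 1 higher and 1 lower of 7 (20.2% and 4.35%) and a median of −0.40. Whether the ratios of satellite glia differ from those of the other gates was not tested, since both come from the same 2 libraries. Other glia of the DPN library carried more neutrophil transcripts, with all 4 markers higher and a summed level of 72.4 CPM in DPN and 1.31 CPM in Control, whose part in the ratios there was not tested. In satellite glia, 2 of these 4 markers were lower and their sum was 1.30 CPM in DPN and 9.05 CPM in Control, and 2 of 3 red cell markers were lower, with sums of 5.57 and 34.9 CPM. Of 4 neuron markers 2 were higher in satellite glia, with sums of 217 and 129 CPM, 3 in other glia (405 and 298 CPM), 3 in the endothelium (200.1 and 107 CPM), 4 in fibroblasts (273.5 and 137.5 CPM) and 4 in macrophages (431 and 176 CPM), and none was lower. The part of these markers in the ratios of the members was not tested either.

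**Figure D3:**
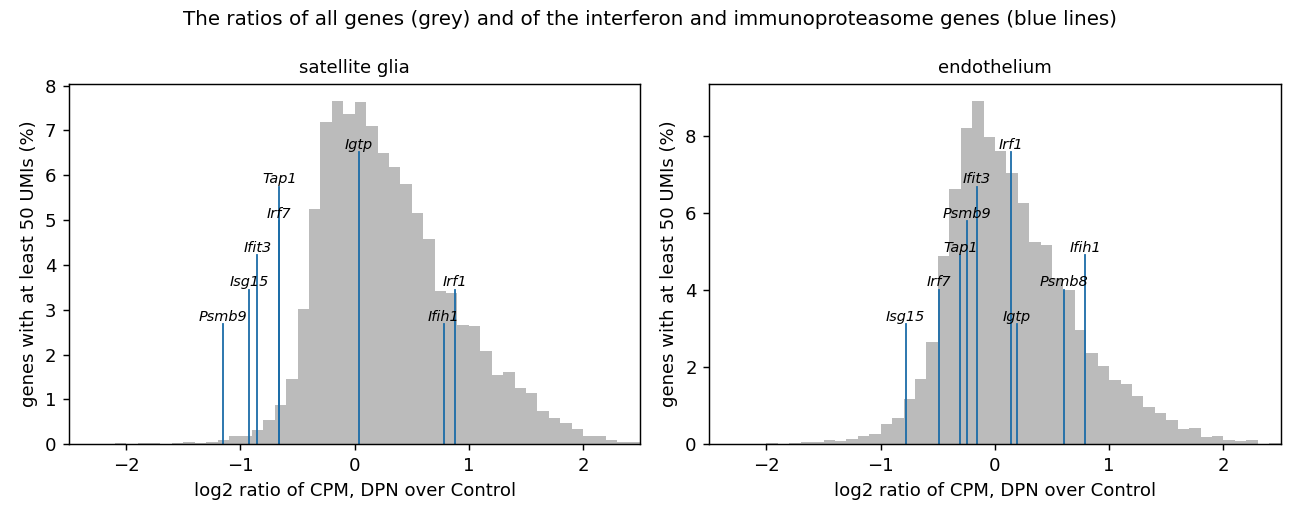
Distribution of log2 ratios (DPN over Control) of all genes with at least 50 UMIs (grey, percent of genes per bin of 0.1) and the position of each member (blue lines, heights only for legibility) in satellite glia and endothelium. In satellite glia Psmb9, Isg15, Ifit3, Irf7 and Tap1 lie in the lower tail, in which 2.43% of genes were called lower, while in the endothelium only Isg15 was called lower.

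The sum over the 9 genes hid these opposite directions. It was 1903 CPM in DPN and 1715 CPM in Control satellite glia (1.11, 1.10 to 1.12), since Irf1 gave more UMIs than any other member. Without Irf1 the sum was 1040 and 1245 CPM (0.836, 0.825 to 0.847), and that of Isg15, Ifit3 and Irf7 was 223 and 413 CPM (0.541, 0.527 to 0.555). Each of these genes was called lower in satellite glia, so that their sum restates those calls. Ifih1, whose window also held ISRE letters, is not in this sum and was higher there (1.72). The sum of all 9 had a ratio of 1.14 in other glia, 0.971 in the endothelium, 1.27 in fibroblasts and 0.865 in macrophages. The sum of Isg15, Ifit3 and Irf7 had ratios of 0.722, 0.734, 0.716 and 0.440 in these gates, the last resting on the 2 barcodes named above. The macrophage sum of all 9 includes these barcodes too. They held 77 and 29 UMIs of Isg15, Ifit3 and Irf7, of 568 Control macrophage UMIs of the 9 genes.

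The share of cells with a high level of a gene, at least 5 per 10000 UMIs and 3 UMIs, differed widely between the members. In satellite glia it was 66.8% in DPN and 37.0% in Control for Irf1, 23.1% and 22.4% for Igtp, and 16.6% and 5.22% for Ifih1. For Isg15 it was 6.84% and 16.6%, for Tap1 4.95% and 13.1%, and for Ifit3 3.65% and 7.09%. It was under 0.5% in both libraries for Psmb9, Irf7 and Psmb8. These shares depend on depth as well as level. A cell was called interferon-high if Isg15, Ifit3 and Irf7 together reached 10 per 10000 UMIs and at least 2 of the 3 genes had a UMI. These 3 genes were all called lower in DPN satellite glia, so that the shares there are no separate result from those calls. Such cells made up 3.19% (96 of 3012, Clopper-Pearson interval 2.59% to 3.88%) of DPN satellite glia and 8.92% (369 of 4135, 8.07% to 9.83%) of Control satellite glia, a ratio of shares of 0.357 (0.287 to 0.445, Katz log interval). In the endothelium they made up 6.27% (4.97% to 7.78%) in DPN and 8.98% (7.09% to 11.2%) in Control (0.698, 0.512 to 0.951), and in other glia 1.09% (0.800% to 1.45%) and 1.999% (1.54% to 2.56%) (0.546, 0.374 to 0.797). Among fibroblasts there was 1 such cell in DPN and 0 of 211 in Control, which allows a share of up to 1.42%, and among macrophages there were 1 and 2. Neurons, a comparison gate with a median of 39888 UMIs in DPN and 113009 UMIs in Control, had 3 of 350 and 0 of 143 interferon-high cells, and the 3 were shallow, with a median of 1180 UMIs.

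Depth differed between the libraries, with a median of 11145 UMIs per cell in DPN and 13783 in Control satellite glia. Every cell was then thinned to 1000 UMIs, which left out no cell. UMIs of at least 2 of the 3 genes were in 0.996% of thinned DPN and 3.48% of thinned Control satellite glia, a ratio of 0.286 (0.194 to 0.423). The thinned shares were 2.97% and 4.74% in the endothelium. In other glia they were 0.688% (0.461% to 0.986%) and 0.935% (0.627% to 1.34%), with intervals that overlap. Without thinning, a minimum of 20 per 10000 gave 0.474% (0.290% to 0.732%) and 0.645% (0.394% to 0.994%) in other glia, which overlap too. Isg15 had a UMI in 11.2% (10.1% to 12.4%) of thinned DPN and 19.4% (18.2% to 20.7%) of thinned Control satellite glia, against 49.0% and 68.9% without thinning. In neurons the thinned shares of Isg15 were 5.14% (3.08% to 8.01%) and 2.10% (0.435% to 6.01%), with intervals that overlap. Its summed level in neurons ran the other way, with 11.35 CPM in DPN and 14.67 CPM in Control (0.774, 0.641 to 0.935). Thinning gives shallow and deep cells the same weight, and the median depth of neurons differed between the libraries as given above. Ifih1 had a UMI in 21.3% of thinned DPN and 14.03% of thinned Control satellite glia, Psmb9 in 3.09% and 6.89%, and Irf1 in 50.2% and 33.3%.

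**Figure D4:**
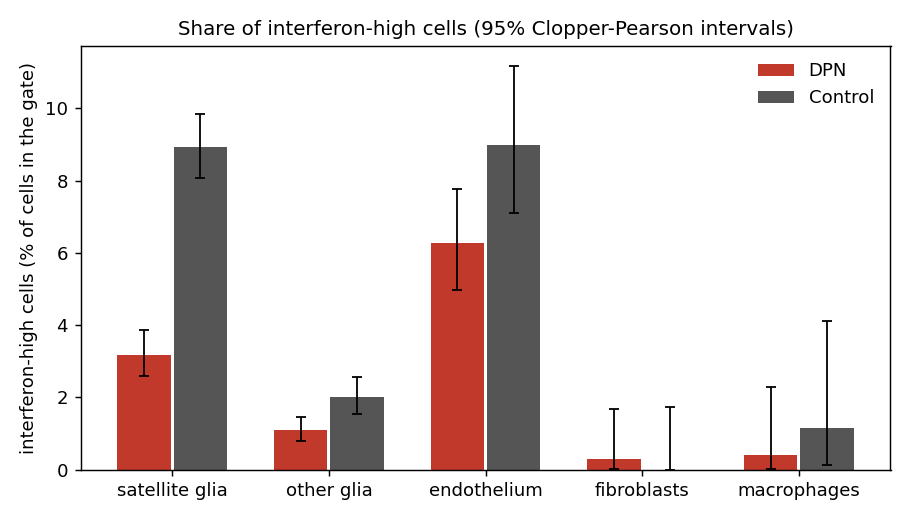
Share of interferon-high cells (% of the cells of a gate) in the DPN library (red, left) and the Control library (grey, right), with 95% Clopper-Pearson intervals. The intervals do not meet in satellite glia (3.19% in DPN and 8.92% in Control) and other glia (1.09% and 1.999%), while those of the endothelium, 6.27% and 8.98%, overlap. Those of other glia also overlapped after thinning and with a minimum of 20 per 10000.

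Other interferon targets, which did not choose these cells, were also higher in them. Of 96 pathway genes and remaining members with enough UMIs in both libraries, 42 were at least 1.5-fold higher in interferon-high than in other satellite glia in both libraries, with intervals above 1, and none was lower by that fold in both. In comparison 3.29% of all genes in DPN and 2.49% in Control satellite glia were that much higher in interferon-high cells. The antiviral gene Mx1 was 11.1-fold higher in DPN and 8.08-fold higher in Control satellite glia of this kind, Rsad2 (viperin) 6.06-fold and 3.79-fold, and Ifit2 4.39-fold and 4.92-fold. Ifih1 was 2.24-fold and 2.02-fold higher and Psmb9 2.35-fold and 1.73-fold, whereas Irf1 was at 1.13-fold and 0.831-fold. Interferon-high endothelium carried Rsad2 at 10.5-fold in DPN and 10.7-fold in Control, and the chemokine gene Cxcl11 at 5.37-fold and 43.1-fold.

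**Figure D5:**
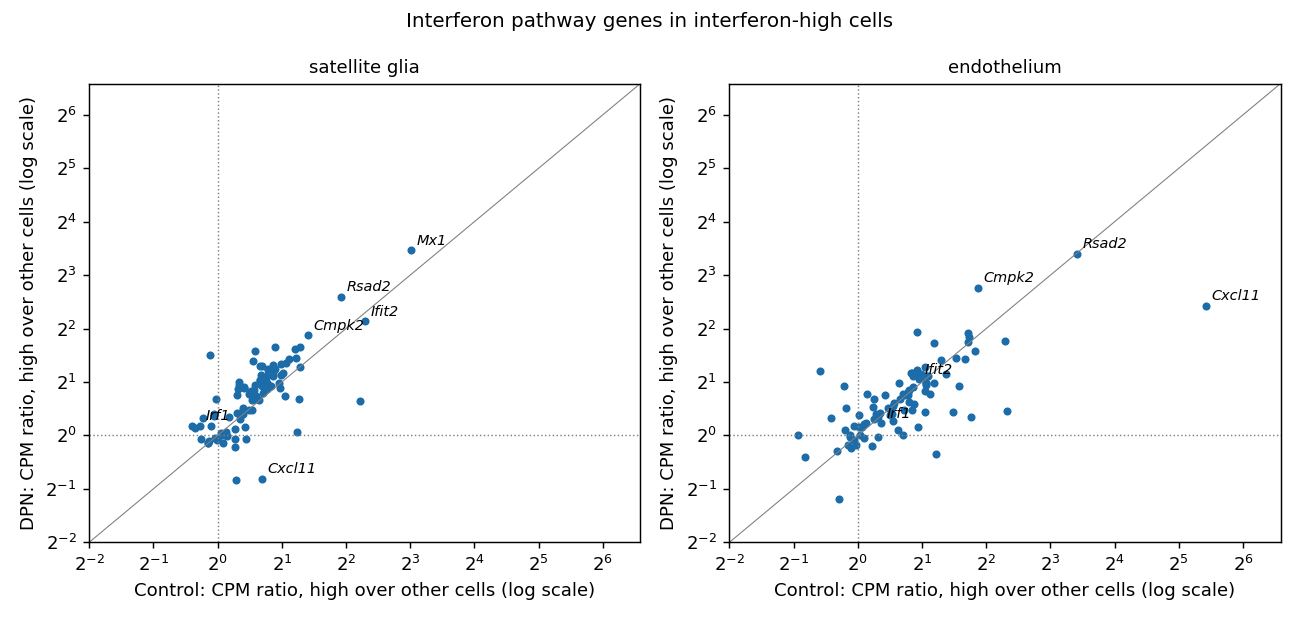
Ratio of CPM in interferon-high over other cells for interferon pathway genes, in the Control library (x axis) and the DPN library (y axis), both log scales, in satellite glia and endothelium. Most genes lie above 1 on both axes, as Mx1 in satellite glia (11.1 in DPN and 8.08 in Control), Irf1 lies near 1, and Cxcl11 in the endothelium lies off the diagonal (5.37 and 43.1).

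The lower levels in DPN satellite glia did not rest on the interferon-high cells alone. In the remaining cells Isg15 stood at 125 CPM in DPN and 207 CPM in Control (0.604, 0.583 to 0.627), Psmb9 at 32.9 and 71.5 CPM (0.460, 0.430 to 0.493) and Tap1 at 158 and 245 CPM (0.646, 0.625 to 0.667), all still past the limit. Ifit3, at 40.7 and 56.2 CPM (0.724, 0.678 to 0.772), was not. In the remaining other glia Ifit3 was at 24.7 and 22.0 CPM (1.12, 0.998 to 1.26). Since the same genes chose the cells, values of Isg15, Ifit3 and Irf7 in this split are descriptions.

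The wider pathway was counted next. Of 125 genes of the interferon pathway beside the members 116 had a symbol in the counts. Of those tested, 14 of 94 were higher and 9 lower in satellite glia, 27 of 92 and 3 in other glia, 21 of 92 and 8 in the endothelium, 13 of 59 and 6 in fibroblasts, and 5 of 48 and 5 in macrophages. In satellite glia 27.2% of all genes were called higher and 2.43% lower, so that the pathway held fewer higher and more lower calls than the background, while in other glia (24.8% and 2.48%) its shares lay closer to it. The shares over all genes were 19.6% and 4.97% in the endothelium, 25.7% and 3.93% in fibroblasts, and 20.2% and 4.35% in macrophages. The median log2 ratio was 0.04, 0.14, 0.05, 0.17 and −0.14 in that order of gates, against 0.21, 0.19, 0.08, 0.20 and 0.13 over all genes. Among 41 tested type I targets in satellite glia 5 were higher and 5 lower, and among 17 interferon gamma targets 3 and 3, again fewer higher and more lower calls than the 27.2% and 2.43% of all genes.

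At the top of the pathway, Socs3, which encodes a feedback inhibitor of cytokine receptors, was at 73.4 CPM in DPN and 18.4 CPM in Control satellite glia (ratio 4, 3.72 to 4.30). It was the highest pathway gene in other glia (3.63) and fibroblasts (3.72) as well, and stood at 3.36 in the endothelium. Adar, an RNA-editing enzyme, had a ratio of 2.52 in satellite glia and 2.83 in other glia, Pml, a nuclear body protein, 2.34 in satellite glia and 2.42 in the endothelium, and Xaf1, a proapoptotic factor, 3.48 in the endothelium. Of the nucleic acid sensing genes other than Ifih1, 2 of 9 tested were higher in satellite glia (27.2% of all genes), 3 of 8 in other glia (24.8%) and 3 of 8 in the endothelium (19.6%), and none was lower. Those higher in all of these gates included Ddx58, which encodes RIG-I (1.699 in satellite glia, 2.08 in other glia and 1.71 in the endothelium) and Cgas (2.01, 1.86 and 1.71). Ifit1 in other glia (2.898), and RT1-A1 (2.97) and Ifit2 (2.69) in fibroblasts, were also among the 3 highest, as were Jak1 (2.17), Parp14 (2.16) and Slfn5 (1.82) in macrophages.

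At the other end, beside Tap2, the lowest pathway genes of satellite glia were Ifi47, another rodent guanosine triphosphatase (11.3 CPM in DPN and 20.7 CPM in Control, ratio 0.544), and Rtp4 (73.1 and 126 CPM, 0.582). In other glia they were Irf8 (0.607) and Lgals3bp (0.650), and in the endothelium Ifitm1, a restriction factor of virus entry (48.6 and 157 CPM, 0.310), and Cxcl9, a chemokine induced by interferon gamma (61.1 and 113 CPM, 0.540). In fibroblasts they were Trex1 (0.567), Ube2l6 (0.618) and the MHC class I gene RT1-A2 (0.626), and in macrophages the chemokine gene Cxcl10 (155 and 483 CPM, 0.321), Irgm (0.467) and Parp9 (0.515).

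Interferon genes themselves were hardly counted. Of 11 interferon genes with a symbol, among them Ifnb1, Ifng and Ifna4, none had more than 2 UMIs over both libraries in any of the 5 gates. In a comparison gate of T or NK cells, 17 in DPN and 11 in Control, they summed to 79.1 and 42.7 CPM. These levels rest on totals of only 63202 and 46854 UMIs of all genes. Receptors were present, with Ifnar1 at 25.8 CPM in DPN and 15.2 CPM in Control satellite glia (1.699, called higher), and at 32.3 and 19.0 CPM in other glia (1.703). Ifnar2 stood at 13.6 and 12.7 CPM (1.07), Ifngr1 at 42.8 and 41.3 CPM (1.04) and Ifngr2 at 49.8 and 63.5 CPM (0.784) in satellite glia, all within the limits. The kinase gene Jak2 was higher in satellite glia (1.53), other glia (1.61) and endothelium (1.59). The defining T cell markers Cd3e and Cd3d were at 0 in both libraries in satellite glia and endothelium. Cd3g, from the same list, had 16 UMIs in DPN and 22 UMIs in Control satellite glia. The 6 T or NK cell markers summed to 2.02 CPM in DPN and 2.44 CPM in Control satellite glia. In the endothelium they summed to 257 and 377 CPM, almost wholly Ccl5. Other glia of the DPN library held 9 Cd3e, 6 Cd3d and 9 Cd2 UMIs, against 0 of each in Control. Ccl5 was called higher there (1.549, 1.304 to 1.844). The part of these transcripts in the ratios of the members was not tested.

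Members were also compared by their pattern over the 10 values of log2(CPM + 10), 1 per gate and library, which share libraries and depth, so that the correlations are descriptions. Psmb8, under the minimum of 200 UMIs, was left out. Among 10720 genes the most alike to Igtp was the RNA-dependent kinase gene Eif2ak2 (Pearson r = 0.98), followed by Adgrg3 and Tril. Tap1 was most like Prxl2a, Mx2 and Ppil1 (0.97 each), and Irf7 most like Angptl4 (0.97), Ppil1 and Tap1 (0.95 each). Ifit3 ran with Grina (0.98), Hs3st1 and Uba7, and Isg15 with Hint2 (0.92), Ogfr and Ppil1. The closest to Irf1 were Dstyk (0.98), Arhgef18 and Ppp1r15a, to Ifih1 Enox1 (0.98), Mpp2 and Sec14l1, and to Psmb9 Bag3 (0.94), Bak1 and Cd1d1. Some of these genes lay near or below the 10 added to the CPM. Over the DPN gates Enox1 was at 0 to 6.02 CPM, Mpp2 at 0.846 to 7.32 CPM and Arhgef18 at 1.69 to 11.3 CPM. Adgrg3 was at 0.846 to 15.6 CPM there and Bak1 at 5.22 to 16.2 CPM. The same limit holds for the member Irf7, which ran from 3.3 CPM in Control fibroblasts to 23.1 CPM in Control satellite glia. Between members, r was 0.95 for Irf7 and Tap1, 0.88 for Isg15 and Irf7, and 0.03 for Tap1 and Psmb9, whose windows overlap.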

How the data were processed

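The authors made the deposited UMI counts per gene and barcode with Cell Ranger 3.1.0, whose reads were mapped with STAR, and the counts are not normalized. For the genome build, no name is given in the sources used here. Rows of the 147 symbols shared by several identifiers were added. Genes, gates and lists were chosen with earlier results of these data known.

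Cells with at least 1000 UMIs and under 20% of UMIs from Mt- genes were gated by marker genes per 10000 UMIs, and a cell could pass more than 1 gate. No doublet caller was run. Counts were summed per gate and library in Python 3.11.15 with SciPy 1.17.1. Named pathway genes are the 3 highest and 3 lowest of each gate with at least 50 UMIs, interferon genes and receptors, and proteasome counterparts. Others, such as Ddx58, Cgas and Jak2, were named after their values were seen. Genomic lengths came from RefSeq GRCr8, which held 90.6% to 94.0% of tested genes. The calling rule and the thinning were tested on simulated data. Alternatives changed the cell filters, gates, totals, scaling and thinning. The libraries held 115409375 UMIs (DPN) and 121101966 UMIs (Control). Values of some genes are not reported here.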

Additional observations from a re-analysis of the deposited data

How the results depend on the processing

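With a mitochondrial limit of 10%, the summed ratio of the 9 genes was 0.997 in satellite glia, 0.977 in other glia and 0.755 in macrophages, satellite glia had 1 member called higher and 3 lower, and macrophages had 0 higher. With AY172581 genes, further genes of the mitochondrial record, counted as mitochondrial, the sum in other glia was 1.12, 3 members were lower in satellite glia and 0 in other glia, and 0 were higher in macrophages. This filter took unequal parts of the libraries. It left 1216 of 3012 DPN and 2850 of 4135 Control satellite glia, and 2515 of 4217 and 2185 of 3101 other glia. Among cells of exactly 1 gate the macrophage sum was 1.09, with 0 members lower, and fibroblasts had 1 higher. The Isg15 ratio of macrophages turned to 1.36 there. Doubled gate thresholds gave sums of 1.14 in satellite glia, 1.11 in other glia and 0.676 in macrophages, with 5 members lower in other glia, 1 higher and 2 lower in fibroblasts, and 0 higher and 3 lower in macrophages. Doubling also raised the level of Fabp7 plus Tyrp1 that other glia lay below, so that cells of the satellite glia gate entered other glia. Other glia then numbered 4414 DPN and 3744 Control cells, and satellite glia 1377 and 2448. Median-ratio scaling gave sums of 1, 1.05 and 0.940 in satellite glia, other glia and endothelium, with 4 members lower in other glia and 1 higher in fibroblasts. Over all genes it moved the calls to 20.7% higher and 5.52% lower in satellite glia (27.2% and 2.43% without it), 19.3% and 5.25% in other glia (24.8% and 2.48%), and 21.3% and 6.46% in fibroblasts (25.7% and 3.93%). Without mitochondrial UMIs in the totals the satellite glia sum was 1.13. Thinning to 1000 UMIs gave sums of 1.09 in satellite glia, 0.998 in the endothelium, 1.06 in fibroblasts and 1.22 in macrophages, with 1 member lower in other glia, 0 lower in the endothelium, 0 higher and 0 lower in fibroblasts and in macrophages, and the fibroblast Ifih1 ratio turned to 0.919. With cells weighted equally the sum was 1.01 in the endothelium and 0.977 in macrophages, with 1 member higher in fibroblasts and 2 higher and 2 lower in macrophages. Cells of at least 2000 UMIs left 0 members lower in fibroblasts, and an upper limit on UMIs and genes left 1 higher there. Without the 2 Control macrophages with most Isg15, an alternative added after seeing the data, 2 members were higher and 0 lower in macrophages. The ratio of interferon-high shares in satellite glia was 0.286 after thinning. The causes of these changes were not tested.

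Of 17 member calls, 9 were kept with thinning, which leaves few UMIs, 11 with the limit of 10% and 12 to 17 in the others. In satellite glia Isg15 (0.413 to 0.567), Ifit3 (0.499 to 0.660), Psmb9 (0.405 to 0.539) and Ifih1 (1.55 to 1.95) stayed past the limit in the alternatives on filters, gates, totals, scaling and thinning. Leaving out the interferon-high cells, also added after seeing the data, gave 0.604, 0.724, 0.460 and 1.81 in that order, which ended the call of Ifit3 only. No paired analysis was possible because there is only 1 library, from pooled rats, on each side. Few UMIs limit Irf7 in fibroblasts and macrophages.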
